A study of Drosophila melanogaster with 3 samples.

Results

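Collier (Col), the single *Drosophila* transcription factor of the COE (Collier/EBF/Olf-1) family, was mapped on chromatin at 6 genes that encode transcription factors of embryonic muscle identity: *knot* (*kn*, the gene of Col itself, also called *col*), *apterous* (*ap*), *even-skipped* (*eve*), *Pox meso* (*Poxm*), *slouch* (*slou*) and *Drop* (*Dr*, also called *msh*). All Col summits whose gene label is one of these 6 names were taken, which gave 9 of the 559 summits in the list. The genes were grouped by their known role in muscle among those that carry a summit, so the presence of a summit is no result. Chromatin of whole embryos of stage 13 to 14 was immunoprecipitated with 3 monoclonal antibodies against Col in one mix (Col-IP). The comparison was a mock-IP with an antibody against the HA tag, and the labels also list input DNA; neither has values of its own in the list. DNA from a pair of IPs was pooled before sequencing, so Col-IP and mock-IP were 1 library each and no spread between replicates could be measured. All embryos carried a *lacZ* reporter driven by a *col* regulatory region whose Col site had been changed to the in vitro consensus. Whether reads from that copy contributed to the *kn* summits was not tested. Bound DNA was released with recombinant Col protein, which brought plasmid DNA into the IP that the authors removed from the reads. Whether any of it remained at *kn* was not tested.

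The somatic muscles of the fly embryo each form from a founder cell, and the set of transcription factors that a founder expresses gives the muscle its size, position and attachment. Such factors are called muscle identity factors. Most of them are also used in the nervous system, where they mark subsets of neurons. Col is expressed in the progenitors of dorso-lateral muscles and is then maintained in one of these muscles, as well as in subsets of neurons, the lymph gland and the head. COE proteins bind DNA as dimers to a palindrome with the core CCCNNGGG.

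Sites of 15 bases were listed by the authors from a motif search in a window around each summit, at most 1 per window, and they match this core to different degrees. They are shown here for *Poxm* and *slou*, and for comparison for *eya*, *caup* and *tup*, other muscle identity genes of the list described below. Capitals mark the bases that match CCCNNGGG, and positions are those of dm3. The strand on which the letters were listed is not given in the sources used here, and the core reads the same on both strands.
*Poxm* (chr3R:4156665-4156679): aagtCCCatGGGggc
*slou* (chr3R:17371456-17371470): agctCCCaaGaGtcc
*eya*, higher summit (chr2L:6540991-6541005): taagCCCtgGGGtgc
*eya*, lower summit (chr2L:6540597-6540611): agacCCCcaGGGatg
*caup* (chr3L:12633134-12633148): gtgtCCCctGaGatt
*tup*, higher summit (chr2L:18897269-18897283): actCCCccGGGgaga
*tup*, lower summit (chr2L:18867997-18868011): aattCCCattacagc
The *Poxm* site held all 6 specified bases of the core. At *slou* and at *caup* 5 of the 6 were present.

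Each summit carries a fold enrichment, a linear ratio given by the peak caller over a background that the methods do not name. The 9 summits at muscle identity genes ran from 2.02 to 5.40 with a median of 3.53, whereas all 559 summits ran from 1.94 to 16.17 with a median of 2.85. A fold enrichment of at least 3 was reached by 7 of the 9, and by 44.9% of the whole list. Above the median of the list were again 7 of the 9, against 49.7% of all summits, and 3 of the 9 lay above its upper quartile of 3.74. The lower *ap* summit was the one value under the lower quartile of 2.38. At the level of genes, the highest summit of each of the 6 had a median of 3.94, and the highest summit of each of the 409 labels a median of 2.96. Each summit is 1 value without an error, so these differences between medians were not tested.

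**Figure D1:**
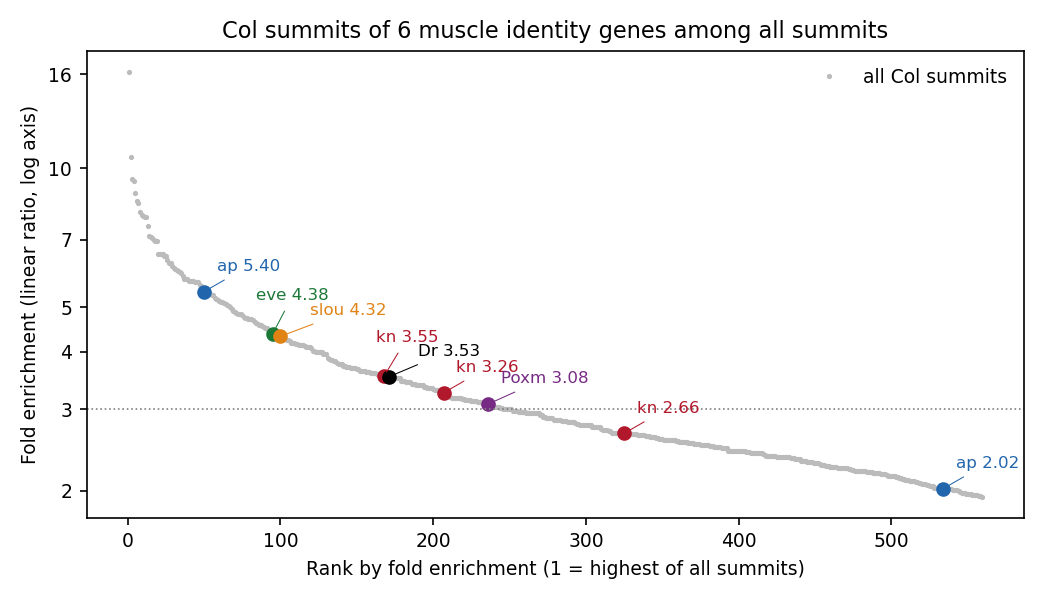
Fold enrichment (linear ratio, log axis) of all 559 Col summits by rank, with the 9 summits at the 6 genes coloured and labelled with their values; the dotted line marks a fold enrichment of 3. The coloured points lie between 5.40 (*ap*, rank 50) and 2.02 (*ap*, rank 534), and 7 of them lie above the line.

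In order of their highest summit, the genes were *ap* (5.40), *eve* (4.38), *slou* (4.32), *kn* (3.55), *Dr* (3.53) and *Poxm* (3.08). *eve* and *slou* had ranks 95 and 100 in the list, and *kn* and *Dr* ranks 168 and 170. Without replicate libraries no order between such neighbours can be stated.

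*kn* encodes Col and is known to be under its own control in muscle. It carried 3 summits on chromosome 2R (dm3), at 10687092 with a fold enrichment of 3.55, at 10688182 with 3.26 and at 10690402 with 2.66. In the study's annotation all of them are intragenic. They lay 1090 and 2220 bp apart and spanned 3310 bp, which among the 16 labels with 3 summits was the second shortest span, against a median of 14600 bp. The 3 values were close to each other: the highest was 1.33 times the lowest, the third smallest ratio of these 16 labels, whose median was 1.70. In height, however, *kn* ranked 12 of the 16 by its highest summit, and the median of their highest summits was 3.96. The lowest *kn* summit lay below the median of the list, at rank 321. The study's table of candidate targets counts a single peak for *col*, with the value of the middle summit (3.26). The 3 summits of the list were kept here.

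*ap* encodes a LIM-homeodomain protein of lateral muscles, of a subset of ventral nerve cord neurons and, later, of the dorsal wing. Its 2 summits differed more than those of *kn*. The higher one, at 1624602 of chromosome 2R, had 5.40 and rank 50 of the whole list, the highest value at any of the 6 genes. The study's table of candidate targets gives *ap* a single peak with a somewhat higher value, and the values of the list were kept here. The lower one, 4480 bp away at 1629082, had 2.02 and rank 534, with only 20 summits of the list below it. Their ratio of 2.67 was number 63 of 66 from the smallest among the labels with 2 summits, where the median was 1.35, while their distance was close to the median of 4850 bp. Both are annotated as 5′ of *ap*, and the study places the higher one in an enhancer of *ap* that is active in neurons. The lower one bears a mark of curation from a database of regulatory elements.

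**Figure D2:**
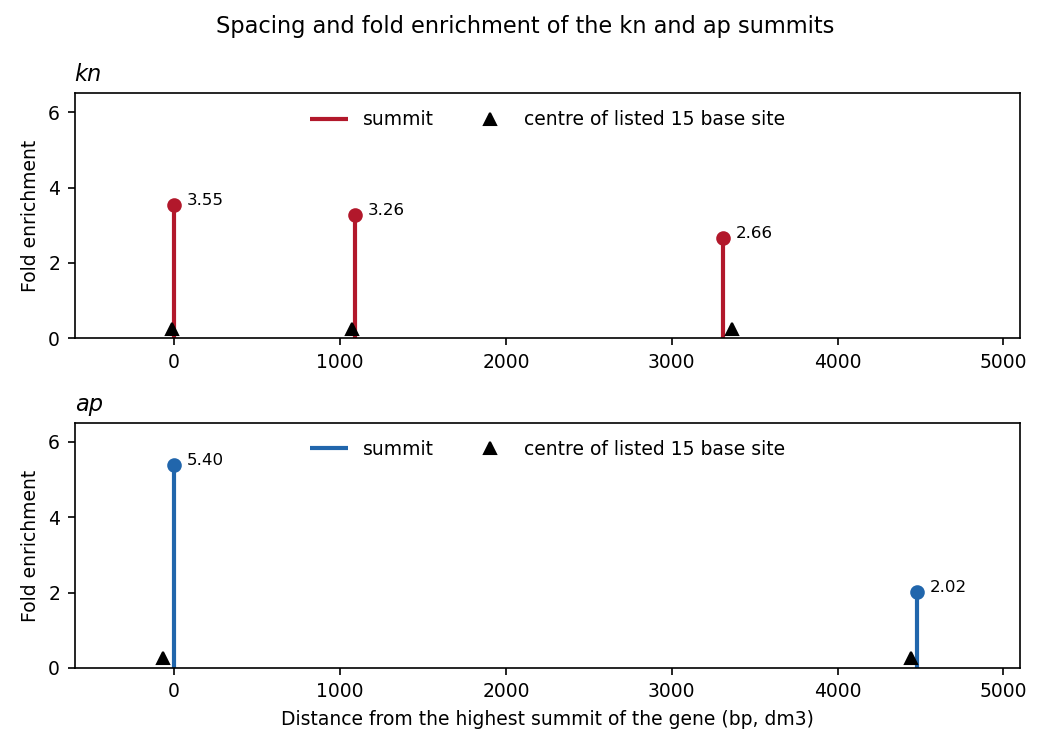
Fold enrichment (linear ratio) of the summits of *kn* (above) and *ap* (below) against the distance in bp from the highest summit of each gene; bars with dots are summits and triangles the centres of the listed 15-base sites. The 3 *kn* summits lie within 3310 bp at 3.55 to 2.66, and the 2 *ap* summits 4480 bp apart at 5.40 and 2.02.

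The most similar labels by height were CG13898 for *kn*, with summits of 3.50, 3.11 and 2.56 (sum of absolute differences 0.30), followed by *Best4* with 3.66, 3.11 and 3.00 (0.60). They were spread over 19740 and 13240 bp. For *ap* they were CG6234, with 5.66 and 2.03 (0.27), and the homeodomain gene *otp*, with 4.91 and 2.02 (0.49). The summits of CG6234 were 360 bp apart and those of *otp* 1410 bp.

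*kn* and *ap* were thus 2 of the 6 genes with several summits, against 23.2% of all labels. The other 4 genes had a single summit each, with fold enrichments from 3.08 to 4.38, while the 314 labels with a single summit had a median of 2.77. Of the 9 summits, 6 lay on chromosome 2R and 3 on 3R, against 21.1% and 23.4% of the list; since summits of one gene share their place, this counts 3 genes on each arm.

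*eve* encodes a homeodomain protein, first a pair-rule factor of segmentation and then a factor of a dorsal muscle, of pericardial cells and of defined neurons. Its summit was at 5869442 of chromosome 2R with a fold enrichment of 4.38, higher than 86.3% of the labels with 1 summit. It is annotated as 3′ of the gene, inside an element known to drive *eve* in a group of lateral neurons. Chromatin came from whole embryos, so binding in muscle cells and in neurons cannot be told apart at any of the 6 genes. *eve* lies between CG12134 and *TER94* in the gene order of RefSeq (Release 6).

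*slou*, a homeodomain gene also known as S59, is used in a subset of muscle founders and in neurons. Its summit at 17371382 of chromosome 3R had 4.32, higher than 85.4% of the labels with 1 summit, and is likewise annotated on the 3′ side. The value was close to that of *eve*, but the listed sites differed: that of *eve* was centred 3 bp from the summit and that of *slou* 81 bp. Another summit, labelled CG7956 with 4.74, lay 11490 bp from it. CG7956 is named *sp3* in RefSeq, where it is the next protein-coding gene to *slou* on one side.

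*Dr* (*msh*) encodes a homeodomain protein of the Msx family, used in dorsal and lateral muscle progenitors and in dorsal neuroblasts. The value at its summit (chromosome 3R, 25378682) was 3.53, and the summit is annotated as 5′ of the gene. It was the only one of the 9 without a listed site. *Poxm*, a gene of the paired-domain (Pax) family used in a subset of somatic muscles, had an intragenic summit at 4156682 of chromosome 3R with 3.08, the lowest of the 4 single summits and above 61.1% of the labels with 1 summit. In RefSeq the *Poxm* gene contains 2 other genes, *Or85a* and CG7443, and overlaps *Ctr1B*. The list assigns the summit to *Poxm* alone.

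A site centred within 100 bp was listed for 8 of the 9 summits and for 97.0% of the whole list. The distances were 3 bp at *eve*, 10 bp at *Poxm*, 15, 19 and 54 bp at the *kn* summits in the order of their positions, 68 bp at the higher and 36 bp at the lower *ap* summit, and 81 bp at *slou*. The median was 27.5 bp, against 18 bp over all 542 summits with a site. Within 25 bp were 4 of the 9 (*eve*, *Poxm* and a pair of *kn* summits), against 62.4% of all summits. The higher *ap* summit and that of *slou*, the first and the third of the 9 by fold enrichment, had the sites farthest from their summits. The motif search listed at most 1 site per window, so a second site closer to the summit would not be shown.

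The core was complete in 2 of the 8 sites, those of *eve* and *Poxm*, and in 43.0% of all summits with a site. The first *kn* site, the one at the higher *ap* summit and that of *slou* held 5 of the 6 bases. The other 2 *kn* sites and the one at the lower *ap* summit held 4. At least 5 bases were thus found in 5 of 8, against 87.6% of the list. When the search pattern was extended by ATT before and AAT after the core, giving 12 specified bases, the match at the 8 sites ranged between 6 and 9 and had a median of 8, which was also the median over all sites. With 5 core bases, the higher *ap* summit (5.40), *slou* (4.32) and the first *kn* summit (3.55) stood above the median of 2.79 for summits of the list with such sites. With a complete core, *eve* (4.38) stood above the corresponding median of 3.07 and *Poxm* (3.08) next to it. With 4 bases, a *kn* summit (3.26) was above the median of 2.66 for 4 or fewer, another *kn* summit (2.66) on it and the lower *ap* summit (2.02) below.

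**Figure D3:**
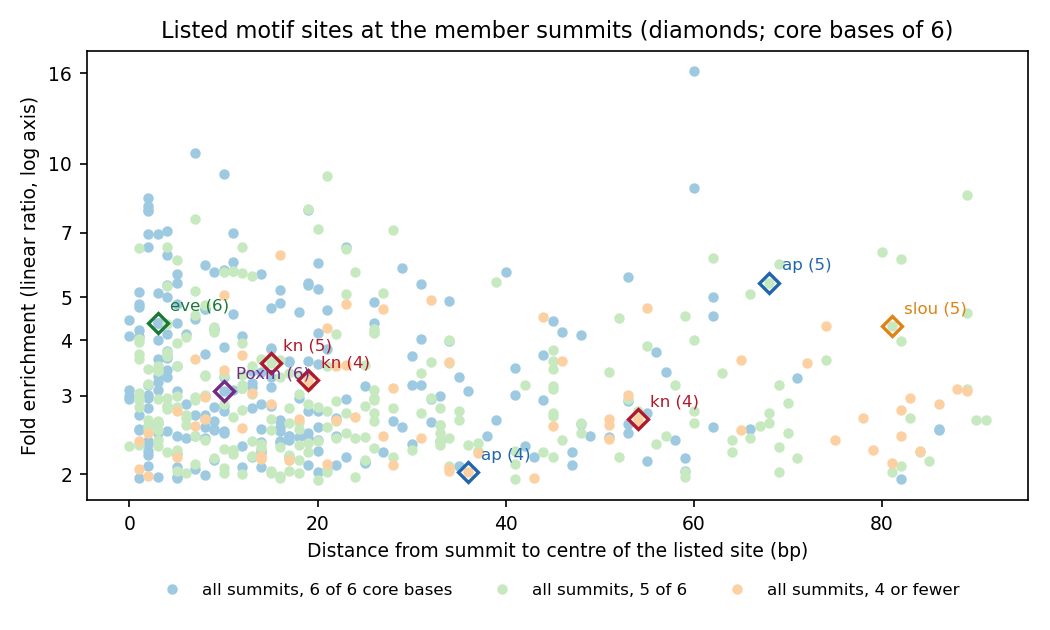
Fold enrichment (linear ratio, log axis) against the distance in bp between summit and centre of its listed site for all summits with a site, coloured by the number of core bases held; diamonds mark the 8 member summits with a site, with that number in brackets. *eve* and *Poxm*, with 6 bases, lie at 3 and 10 bp, whereas *ap* and *slou*, with 5 bases, lie at 68 and 81 bp.

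*Dr* was one of 17 summits of the list with no site within 100 bp. The nearest listed site, 383448 bp away, was that of the nearest other summit, because sites were sought only in windows around summits. This distance therefore says nothing about motifs near *Dr*. These 17 had a median fold enrichment of 2.44 and reached 4.60. Of them 7 had at least 3, and *Dr* was number 6 from the top. No sequence of the window was read here, so whether it holds a site that the search did not list was not tested.

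The 6 genes are part of a longer list of 23 muscle identity factors, chosen with earlier results of these data known. Shares of this list are therefore no evidence of enrichment, and they stand beside all protein-coding genes, not beside transcription factors alone. Apart from the 6, 4 of the other 17 had a summit (23.5%), against 2.92% of the 13962 protein-coding genes of the RefSeq table. They were *tup*, a LIM-homeodomain gene of dorsal muscles (3.77 and 2.54), *caup*, an Iroquois homeodomain gene (4.17), *eya*, a transcriptional coactivator (3.99 and 2.39), and *so*, its homeodomain partner (5.32). The other 13 had no labelled summit: *nau*, *Kr*, *lbe*, *lbl*, *vg*, *org-1*, *run*, *ara*, *lms*, *Six4*, *tey*, *Ptx1* and *mid*. The 9 summits at the 6 genes had a median of 3.53 (2.02 to 5.40), against 3.88 (2.39 to 5.32) for the 6 summits at *tup*, *caup*, *eya* and *so*, so that the ranges overlapped. As at *ap*, *tup* and *eya* each paired a summit above the list median with one below it. The listed sites of *eya* both held the full core, unlike any of the sites joined to the *kn* or *ap* summits. The fragment that the study tested at the higher *ap* summit holds a further Col site, with the full core, which was not joined to a summit here.

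Of 7 Hox genes and cofactors chosen for this list (*Scr*, *Antp*, *Ubx*, *abd-A*, *Abd-B*, *hth* and *exd*), which give muscles of different segments their character, 4 had summits (57.1%), against 2.92% of the protein-coding genes. *Antp* had 4 (5.22, 4.72, 2.87 and 2.37), *hth*, a Hox cofactor, had 5 between 3.57 and 2.42, *abd-A* had 2 (2.96 and 2.25) and *Abd-B* had 1 (2.24). The 9 summits at the 6 genes had a median of 3.53, against 2.73 for these 12, whose range lay within that of the 9. The Hox genes *pb* (2.65) and *Dfd* (2.07), named after their values were seen, also carry a summit and were not in this set. Of 10 general factors of the mesoderm 2 had a summit (20.0%), *pnr*, a GATA factor (3.35), and *zfh1* (4.02). Among 23 genes of muscle fusion, attachment and contraction, it was 2 (8.70%), *sns*, an adhesion protein of myoblast fusion (3.21), and *Grip*, a PDZ scaffold protein (5.93). *kon* (3.38), a gene of muscle attachment, and *TpnC47D* (2.87), a troponin C gene, also carry a summit. They were named after their values were seen and were not in this set, so its share depends on the genes chosen. None of these shares was tested, and all these lists were chosen with earlier results of these data known. Gene length was not compared here.

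**Figure D4:**
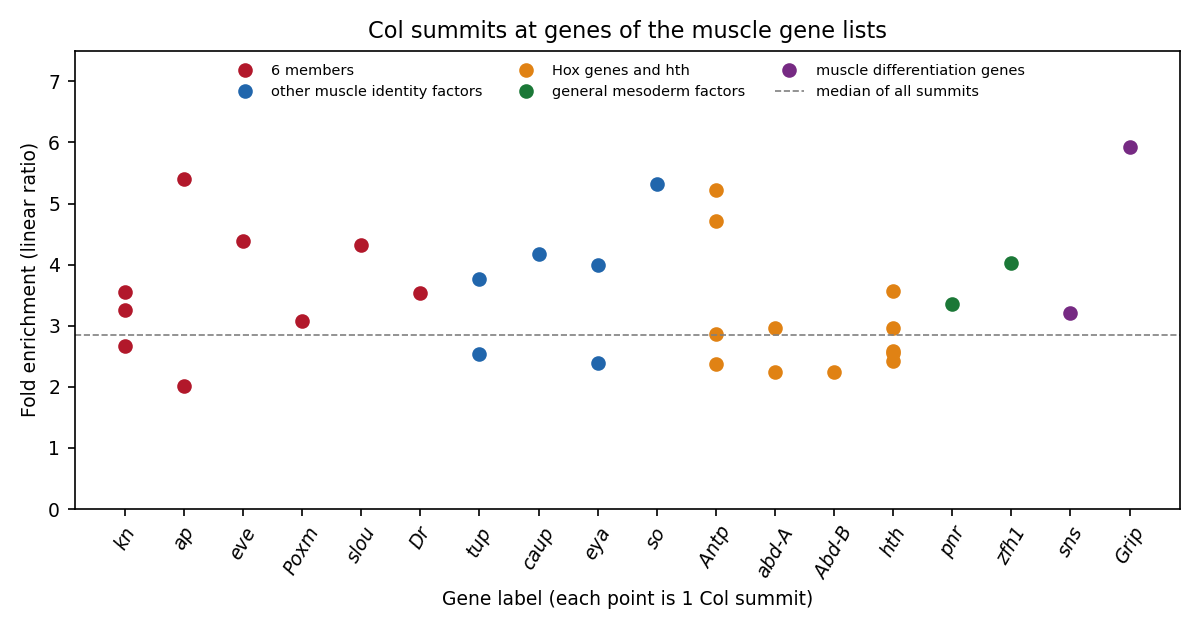
Fold enrichment (linear ratio) of every Col summit at the 6 genes and at the other genes of the muscle lists that carry one; each point is 1 summit and the dashed line is the median of all 559 summits, 2.85. The highest summit of every one of the 6 genes, and of *tup*, *caup*, *eya* and *so*, lies above the line. So does that of every other gene shown except *Abd-B* (2.24). The median of the highest summit over all 409 labels, 2.96, is also above it.

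The 9 summits differed in how far other labels were from them. The nearest summit of another label was 797 and 793 kb from the *ap* summits, 383 kb from *Dr*, 257 kb from *eve* and 105 kb from *Poxm*, while the median over the list was 69.4 kb. By this distance the higher *ap* summit was number 6 of 558 from the most isolated. In contrast, the *kn* summits lay 14.5, 13.4 and 11.2 kb from a summit labelled CG10200 (3.18), which RefSeq names *hui* and places next to *kn*. With *slou* and CG7956, *kn* was the other gene of the 6 with a foreign summit within 50 kb. A label gives the overlapping or nearest gene, and whether these summits act on the labelled gene or on its neighbour was not tested here. In the study, mutating the Col sites of a reporter fragment at the higher *ap* summit drastically reduced its activity in *ap* neurons. Mutating the Col site of a *col* fragment that covers the middle *kn* summit severely reduced its activity in a dorso-lateral muscle. Fragments of *eve*, *slou*, *Dr* and *Poxm* were not mutated there. The study cites earlier genetic work that placed *Poxm*, *slou* and *col* under Col in certain muscle lineages. It cites the same for *ap* and *eve* in certain nerve cord neurons. From the place of the *eve* summit, the paper proposes direct regulation of *eve* by Col in the lateral neurons.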

How the data were processed

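ChIP-seq of stage 13 to 14 embryos gave 1 Col-IP, 1 mock-IP and 1 input library. The authors used Bowtie 0.12.7 to align the reads to dm3 (BDGP release 5), SISSRs at permissive thresholds to call peaks on the pooled Col-IP, and PeakAnalyzer with curation to assign genes. The deposited list gives the position of each of 559 summits, its gene label and its fold enrichment, which is a linear ratio. It holds no read counts, so the number of reads behind a single summit and the precision of its value are unknown. Library totals were not computed here. All positions lie on a 10 bp grid.

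The 9 summits labelled *kn*, *ap*, *eve*, *Poxm*, *slou* or *Dr* were ranked within the list. Sites of 15 bases listed by the study were joined to the nearest summit by the distance to the site centre, at most 100 bp, and matched to the core at every offset on both strands. Of 414 gene names, 409 matched the RefSeq table (Release 6), which served only for names, gene order and the set of protein-coding genes. A dm3 genome was not used here. No test was made, since there were no replicates. The members and gene lists were chosen with earlier results of these data known. Named genes are the 6 members, list genes with a summit, the nearest foreign label within 50 kb of a member summit, and the 2 labels most like *kn* and *ap* in height. The 13 muscle identity genes without a summit are named in addition, as are *pb*, *Dfd*, *kon* and *TpnC47D*. *Scr*, *Ubx* and *exd* are named as the rest of the Hox list. CG12134, *TER94*, *Or85a*, CG7443 and *Ctr1B* are named from the gene order around *eve* and *Poxm*. Alternatives were other fold thresholds, merging distances, site distances, patterns and name matching, and leaving out each gene. Python 3.11.15, numpy 2.4.6 and matplotlib 3.10.9 were used, and the functions were tested on simulated data, where 200 of 200 site distances were recovered.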

Additional observations from a re-analysis of the deposited data

How the results depend on the processing

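The median fold enrichment of the 9 summits stayed between 3.39 and 3.94 when each gene was left out in turn, when only the highest summit of each gene was taken or when a geometric mean was used. With a threshold of 4 in place of 3, 3 member summits passed, against 22.4% of all summits. Keeping only summits of at least 3 left 1 gene with several summits, *kn*. The share of all labels with several summits at that cut was not computed, so this count cannot be set against the list. Merging summits within 2000 bp left 2 at *kn* and 2 at *ap*. A listed site lay within 50 bp of 5 of the 9 member summits, against 80.7% of all summits, and within 25 bp of 4, against 62.4%. A shorter reach can only lower such counts, for the members and for the whole list. The median match was 8 of 12 bases with the longer pattern, which has more bases to match. For the core it was 5 of 6, also when the sites were read only as printed. That reading could not change it, since the core is a palindrome. The count of muscle identity factors with a summit was 10, members included, under every alternative run. The members were chosen among genes with a summit, so their part of this count says little about robustness. Without them the count was 4, also at a fold enrichment of at least 3. No paired analysis was possible because Col-IP and mock-IP are 1 library each. The list holds no read counts and no mock-IP values, so neither the error of a fold enrichment nor the background at a summit could be given.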
